A study of Mus musculus with 18 samples.

Results

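Protein kinase A and Epac are the main intracellular receptors of cyclic AMP (cAMP), and their 8 genes are described here among the 48440 genes of a brain RNA sequencing study. The genes were taken by symbol. They are the catalytic subunit genes Prkaca and Prkacb, the regulatory subunit genes Prkar1a, Prkar1b, Prkar2a and Prkar2b, and the Epac genes Rapgef3 and Rapgef4. The study set high against low performers among Diversity Outbred mice, an outbred stock that mixes the genomes of several founder strains. Its title names short-term memory and a thalamic orphan receptor. Tissue came from the samples named MDTH and HPF and from the prefrontal cortex (PFC), with 3 libraries of high performers and 3 of low performers in each, 18 in all. No age, treatment or engineered allele is given in the labels for any group, and all groups share the outbred stock. The sources used here do not say how performance was scored or what exactly was dissected under the names MDTH and HPF.

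In the resting kinase, a pair of regulatory subunits holds a pair of catalytic subunits inactive. When cAMP binds the regulatory subunits, the catalytic subunits are freed and phosphorylate ion channels, receptors and the transcription factor CREB, steps long studied in neuronal plasticity and memory. Type I regulatory subunits are largely cytosolic, whereas type II subunits are mostly held by A-kinase anchoring proteins at membranes and the cytoskeleton. Epac proteins are a separate branch, in which cAMP activates an exchange factor for the small GTPase Rap.

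The 2 regulatory types are told apart by the short inhibitor site that occupies the catalytic cleft, so its coding sequence is shown for the 4 regulatory genes. Each line gives 45 bases of the coding strand from GENCODE M21 transcripts on GRCm38, with the 5 codons of the inhibitor site in capitals.
Prkar1a: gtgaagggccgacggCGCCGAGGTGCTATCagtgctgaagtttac
Prkar1b: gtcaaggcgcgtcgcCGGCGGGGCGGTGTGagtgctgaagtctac
Prkar2a: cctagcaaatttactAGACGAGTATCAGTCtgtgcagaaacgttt
Prkar2b: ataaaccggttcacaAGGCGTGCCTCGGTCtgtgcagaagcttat
The Prkar1a stretch lies in exon 3 at chr11:109660092-109660136 on the plus strand, and that of Prkar1b in exon 3 at chr5:139108517-139108561 on the minus strand. The Prkar2a stretch runs across exons 2 and 3 between chr9:108714281-108716879 on the plus strand, and that of Prkar2b across exons 2 and 3 between chr12:31993767-32038649 on the minus strand. The fourth capital codon encodes alanine in Prkar1a and glycine in Prkar1b, which makes the type I sites pseudosubstrates. It encodes serine in Prkar2a and Prkar2b, which makes the type II sites substrates of the kinase itself. Coding sequences of the paralogs were compared, since reads from identical stretches cannot be placed. Identity was 80.9% for Prkaca with Prkacb, 75.2% for Prkar1a with Prkar1b, 71.4% for Prkar2a with Prkar2b and 64.2% for Rapgef3 with Rapgef4, and the longest identical runs were 34, 17, 36 and 15 bases. How the authors' counting treated reads that match both paralogs is not given in the sources used here.

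All 8 genes are protein coding in GENCODE M21 on GRCm38. Prkaca (ENSMUSG00000005469) lies on chromosome 8 from 83972993 to 83996443, plus strand, and Prkacb (ENSMUSG00000005034) on chromosome 3 from 146729574 to 146812990, minus strand. Prkar1a (ENSMUSG00000020612) lies on chromosome 11 from 109649405 to 109669656, plus strand, and Prkar1b (ENSMUSG00000025855) on chromosome 5 from 139017306 to 139150001, minus strand. Prkar2a (ENSMUSG00000032601) lies on chromosome 9 from 108689314 to 108750436, plus strand, and Prkar2b (ENSMUSG00000002997) on chromosome 12 from 31958476 to 32061296, minus strand. Rapgef3 (ENSMUSG00000022469), the gene of Epac1, lies on chromosome 15 from 97744770 to 97767972, minus strand. Rapgef4 (ENSMUSG00000049044), the gene of Epac2, lies on chromosome 2 from 71981240 to 72257474, plus strand.

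Values are the authors' normalized counts, and estimated depth was 42940312 to 47535071 reads per library in MDTH, 76702950 to 88628752 in HPF and 41156443 to 48840131 in PFC. Marker genes followed the tissue labels. A list of 12 thalamic genes summed to 179434 to 409067 normalized counts in MDTH, against 13708 to 36344 in HPF and 19032 to 24422 in PFC, and 10 hippocampal genes summed to 47798 to 81369 in HPF, against at most 20021 in MDTH and 8884 in PFC. In PFC and MDTH the high libraries were named in lower case and the low libraries in upper case, so whatever that naming marks cannot be told apart from performance. The HPF libraries carry lane numbers that no PFC or MDTH library has, so lane and tissue cannot be told apart either. Numbers inside the library names recur across tissues (44, 88 and 165 in the high groups), and libraries that share such a number varied together.

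Type I regulatory genes and Prkaca gave the highest levels in MDTH, per kilobase of annotated exon, and Rapgef3 the lowest in every tissue. In MDTH, Prkar1a averaged 9051 ± 872 normalized counts per kb (SD, n = 6) and Prkar1b 8291 ± 891, and their libraries overlapped. Prkaca followed at 5728 ± 266 per kb, below every Prkar1b library. The next genes in order were Prkacb at 2483 ± 597, Rapgef4 at 1375 ± 263, Prkar2a at 880 ± 330 and Prkar2b at 609 ± 53.6 per kb, and each of these neighbours overlapped with the next. Rapgef3 came last at 301 ± 42.6 per kb and lay below every Prkar2b library.

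In HPF the order per kb began with Prkar1a at 7817 ± 472 (SD, n = 6), above every library of Prkar1b at 5244 ± 1098. Prkar1b, Prkaca at 3965 ± 483 and Rapgef4 at 3424 ± 785 overlapped as neighbours, and Prkacb at 2030 ± 260 lay below all of them. Prkar2b at 629 ± 79.6 and Prkar2a at 503 ± 83.4 overlapped, and Rapgef3 stood at 227 ± 61.1 normalized counts per kb. In PFC the order per kb began with Prkar1b at 12064 ± 1182 (SD, n = 6), above every library of Prkar1a at 8503 ± 982. Prkar1a overlapped with Rapgef4 at 6896 ± 904, Prkaca at 4286 ± 185 overlapped with Prkacb at 3765 ± 298, and Prkar2b at 976 ± 181 overlapped with Prkar2a at 732 ± 101. Rapgef3 was last at 265 ± 36.7 normalized counts per kb. These ranks depend on the length used: with the longest transcript in place of all exons, Prkar1a and Prkar1b traded places in MDTH, Prkaca and Rapgef4 in HPF, and Prkacb ranked above Prkaca and Rapgef4 above Prkar1a in PFC.

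**Figure D1:**
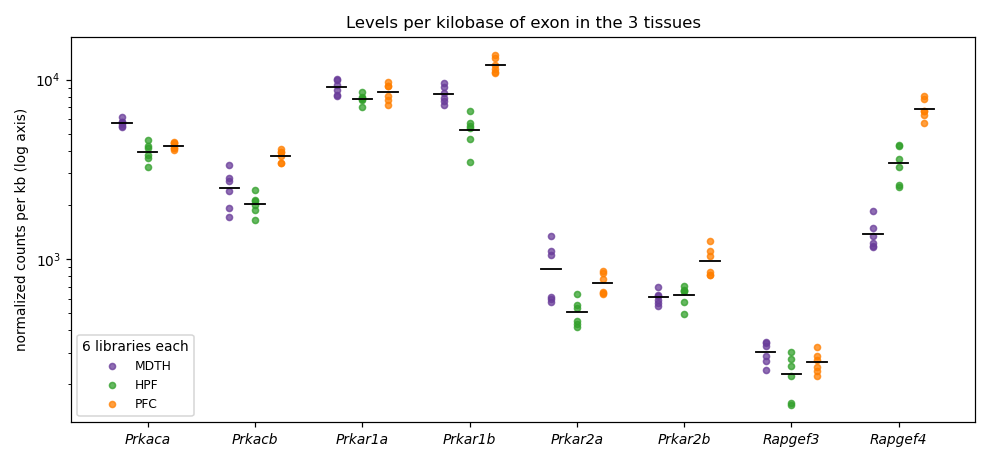
Normalized counts per kb of exon (log axis) of the 8 genes in MDTH, HPF and PFC, with 1 point for each of 6 libraries and a bar at the mean. Rapgef3 lies lowest in every tissue, and Rapgef4 ranges from a mean of 1375 in MDTH to 6896 in PFC.

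Differences between tissues were tested with limma on log2(normalized count + 1) over all 18 libraries, averaged over performance, and log2 differences below are on that scale. An averaged difference can hide unlike or opposite differences in high and low performers, and the interactions are given further below. Of the 8 genes, 5 passed (Benjamini-Hochberg adjusted p below 0.05) for MDTH against PFC, where 40.7% of all genes tested passed. For MDTH against HPF 7 passed, against 58.1% of all genes. For HPF against PFC 5 passed, against 45.5% of all genes. The median log2 difference of the 8 genes was -0.22, 0.35 and -0.58 in these comparisons, beside 0.00, -0.02 and 0.01 over all genes.

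Rapgef4, the Epac form typical of neurons, showed the widest range of the 8. Normalized counts ran from 7785 to 12352 in MDTH, with a mean of 9182 ± 1757 (SD, n = 6). They ran from 16743 to 28676 in HPF, mean 22860 ± 5243, and from 38017 to 53969 in PFC, mean 46046 ± 6035. The 3 tissues did not overlap. Rapgef4 was 5.01-fold lower in MDTH than in PFC (log2 -2.34, SE 0.13, adjusted p = 8.8e-10), 2.49-fold lower in MDTH than in HPF (log2 -1.30, adjusted p = 4.1e-07) and 2.01-fold lower in HPF than in PFC (log2 -1.03, adjusted p = 9.7e-06). Rapgef3, the form known from vessels and many other organs, averaged 1906 ± 270 normalized counts in MDTH, 1436 ± 387 in HPF and 1681 ± 233 in PFC (SD, n = 6 each). Its low performers averaged 2013 in MDTH, 1125 in HPF and 1866 in PFC, and its high performers 1800, 1747 and 1497. Averaged over performance, Rapgef3 was higher in MDTH than in HPF (log2 0.44, adjusted p = 0.0018), mainly through the low performers. HPF was below PFC only in low performers. The other Rapgef3 differences did not pass, at 0.18 for MDTH against PFC (adjusted p = 0.19) and -0.26 for HPF against PFC (adjusted p = 0.051). With the name number as a block, the last of these did pass (adjusted p = 0.027 as a fixed term, 0.020 as a random term). It also passed without high replicate 1 or 2 of MDTH, or high or low replicate 2 of HPF (lowest adjusted p = 0.0067), and with the minimum mean raised to 100.

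The catalytic genes differed in opposite directions between MDTH and PFC. Prkaca averaged 14252 ± 662 normalized counts in MDTH, 9865 ± 1201 in HPF and 10664 ± 460 in PFC (SD, n = 6 each), and every MDTH library lay above every library of the other tissues. In MDTH it exceeded its PFC level 1.34-fold (log2 0.42, adjusted p = 6.4e-06) and its HPF level 1.44-fold (log2 0.54, adjusted p = 2.3e-07). Prkacb averaged 21779 ± 5235 in MDTH, 17808 ± 2283 in HPF and 33028 ± 2614 in PFC, where every library was above those of the other tissues. Prkacb was 1.52-fold lower in MDTH than in PFC (log2 -0.63, adjusted p = 1.8e-05) and 1.85-fold lower in HPF than in PFC (log2 -0.90, adjusted p = 5.0e-07). Low performers averaged 25941 for Prkacb in MDTH and 16521 in HPF, whereas high performers averaged 17618 and 19096. Averaged over performance, Prkacb was higher in MDTH than in HPF (log2 0.26, adjusted p = 0.014), with overlapping libraries, but not among high performers. This call was lost with the name number as a fixed block (adjusted p = 0.067) and with every library set to the same total (log2 0.19, adjusted p = 0.084), also when mitochondrial genes were left out of the total. Prkaca did not pass for HPF against PFC (log2 -0.12, adjusted p = 0.066), and passed with a random block (adjusted p = 0.040) and in 3 of 18 fits without 1 library, those without high replicate 1 of PFC or high replicate 2 or low replicate 1 of HPF (lowest adjusted p = 0.035).

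Among the regulatory genes, Prkar1b, whose product is enriched in brain, averaged 31590 ± 3395 normalized counts in MDTH, 19980 ± 4185 in HPF and 45962 ± 4503 in PFC (SD, n = 6 each). The 3 tissues did not overlap for Prkar1b. Its log2 differences were -0.54 for MDTH against PFC (adjusted p = 0.00017), 0.68 for MDTH against HPF (adjusted p = 1.0e-05) and -1.23 for HPF against PFC (adjusted p = 4.2e-08). Prkar1a, the widely expressed type I gene, varied least, with 39111 ± 3769 in MDTH, 33778 ± 2040 in HPF and 36743 ± 4244 in PFC. It passed for MDTH against HPF (log2 0.21, adjusted p = 0.0017; 0.056 with the fixed block) and did not pass for MDTH against PFC (log2 0.09, adjusted p = 0.15). For HPF against PFC it did not pass (log2 -0.12, adjusted p = 0.065) except with the random block (adjusted p = 0.036) and without low replicate 2 of PFC (adjusted p = 0.040).

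The type II genes split by tissue. Prkar2b, the main type II gene of many neurons, averaged 2224 ± 196 normalized counts in MDTH, 2299 ± 291 in HPF and 3563 ± 661 in PFC (SD, n = 6 each). All PFC libraries were above all others, with log2 differences of -0.66 for MDTH against PFC (adjusted p = 4.3e-06) and -0.62 for HPF against PFC (adjusted p = 9.3e-06). For MDTH against HPF its difference was -0.04 (95% interval -0.21 to 0.12, adjusted p = 0.67). Prkar2a averaged 5614 ± 2103 in MDTH, 3205 ± 532 in HPF and 4667 ± 642 in PFC, and its MDTH libraries spread from 3652 to 8601. It was higher in MDTH than in HPF (log2 0.74, adjusted p = 2.7e-06) and lower in HPF than in PFC (log2 -0.55, adjusted p = 0.00010). The difference for MDTH against PFC was 0.19 (adjusted p = 0.095). It averaged opposite directions: Prkar2a means were 3789 in MDTH and 4103 in PFC in high performers, and 7439 and 5232 in low performers.

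**Figure D2:**
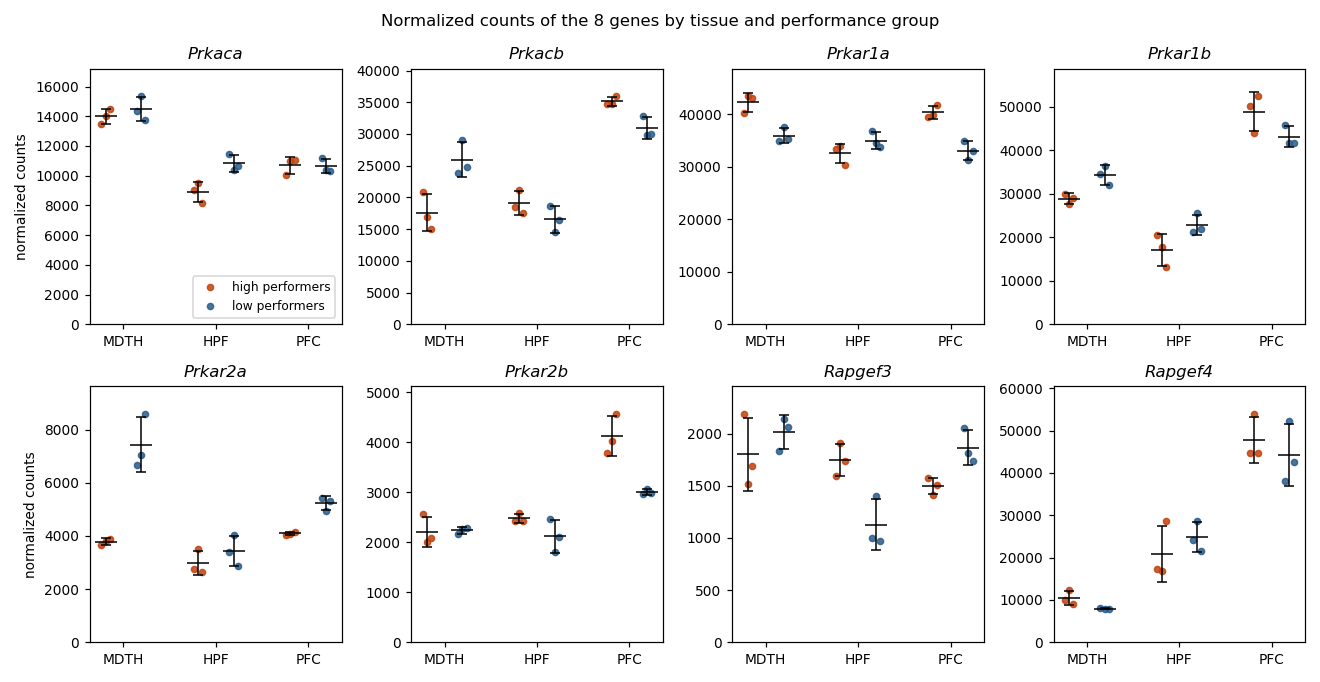
Normalized counts of each gene in high and low performers of MDTH, HPF and PFC. Points are libraries and bars are the mean ± SD of 3. Prkar2a in MDTH shows the largest ratio between the performance groups, at 3652 to 3902 in high performers, against 6661 to 8601 in low performers.

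High performers were then set against low performers within each tissue, 3 libraries against 3. In MDTH 2 of the 8 genes passed, both lower in high performers, where 25.0% of all genes passed, 12.5% lower and 12.5% higher. In HPF 0 passed, against 0.0166% of all genes. In PFC 2 passed, 1 higher and 1 lower, against 5.85% of all genes, 3.22% higher and 2.63% lower. At an unadjusted p below 0.05, 5 genes would be counted in MDTH, 3 in HPF and 5 in PFC, where 39.6%, 13.3% and 24.1% of all genes would be. The groups did not overlap for 5 of the 8 in MDTH, 3 in HPF and 5 in PFC, beside 44.2%, 20.0% and 30.9% of all genes. The median log2 difference over the 8 was -0.11 in MDTH, -0.15 in HPF and 0.15 in PFC, beside medians within 0.01 of 0 over all genes.

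On the log2 scale, the largest difference was that of Prkar2a in MDTH. In MDTH, Prkar2a held 3652, 3813 and 3902 normalized counts in high performers, against 6661, 7056 and 8601 in low performers. Every high library lay below every low one, and the low libraries were spread more widely. Prkar2a was 1.96-fold lower in high performers (log2 -0.96, SE 0.11, 95% interval -1.21 to -0.72, adjusted p = 0.0034), and it passed in each of the 6 fits without 1 library (adjusted p 0.0048 to 0.018). In bulk tissue, fewer cells that express a gene and less of its RNA per cell cannot be told apart. In HPF, Prkar2a held 2770, 3505 and 2653 in high performers, against 3378, 4041 and 2884 in low performers, and the groups overlapped (log2 -0.20, SE 0.16, adjusted p = 0.60). In PFC, Prkar2a held 4052, 4089 and 4167 in high performers, against 5444, 4935 and 5317 in low performers. The PFC groups did not overlap, and Prkar2a was 1.28-fold lower in high performers (log2 -0.35, SE 0.074, adjusted p = 0.043). That call passed in 1 of 6 fits without 1 library, with adjusted p from 0.035 without low replicate 2 to 0.16, and did not pass with all 18 libraries in the fit (adjusted p = 0.075). It was also lost without the filter on low values, without limma's mean-variance trend and with the replicate number of the sample titles (the title number) as a block. Libraries with the same title number did not vary together (correlations of -0.16 to 0.13), and 0 of all genes passed in PFC with that block. A call lost with it, here and below, thus decides little.

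Prkar2b, its type II paralog, differed the other way in PFC. In PFC, Prkar2b held 3778, 4014 and 4566 normalized counts in high performers, against 2972, 3072 and 2980 in low performers. The low libraries were tightly grouped and all below the high ones, a 1.37-fold higher level in high performers (log2 0.45, SE 0.092, adjusted p = 0.040). Without 1 library the call passed in 1 of 6 fits, with adjusted p from 0.049 without low replicate 2 to 0.15. It was also lost without the filter, without the trend and with the title number as a block. In MDTH, Prkar2b held 2554, 1998 and 2078 in high performers, against 2158, 2271 and 2283 in low performers, with the groups interleaved (log2 -0.03, 95% interval -0.28 to 0.23, adjusted p = 0.88). In HPF, Prkar2b held 2425, 2575 and 2429 in high performers, against 2462, 1801 and 2101 in low performers. The HPF groups overlapped at 1 low library (log2 0.23, adjusted p = 0.45).

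The type I genes did not pass in any tissue, although several groups were apart. In MDTH, Prkar1a held 40218, 43493 and 43140 normalized counts in high performers, against 34936, 37595 and 35284 in low performers, without overlap (log2 0.23, SE 0.076, adjusted p = 0.062). In PFC, Prkar1a held 39574, 39809 and 41818 in high performers, against 34938, 31264 and 33054 in low performers, again without overlap (log2 0.29, SE 0.077, adjusted p = 0.074). With every library set to the same total, the PFC difference passed (adjusted p = 0.025), as did both differences with all 18 libraries in the fit (adjusted p = 0.018 in MDTH and 0.011 in PFC). Over all settings tried, the limma adjusted p rose to 0.17 in MDTH and 0.21 in PFC. The MDTH difference fell as low as 0.15 among them, below its range without 1 library (0.21 to 0.27), and that of PFC ran from 0.25 to 0.34. In HPF, Prkar1a held 33347, 33913 and 30414 in high performers, against 36724, 34551 and 33719 in low performers, and the groups overlapped narrowly (log2 -0.10, adjusted p = 0.64).

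Prkar1b was lower in all high libraries than in all low ones in MDTH and HPF, and neither difference passed. In MDTH, Prkar1b held 30050, 27580 and 28982 normalized counts in high performers, against 34545, 36442 and 31943 in low performers (log2 -0.25, SE 0.082, adjusted p = 0.064). It passed there with every library set to the same total (adjusted p = 0.032). In HPF, Prkar1b held 20454, 17778 and 13148 in high performers, against 21096, 25551 and 21856 in low performers, with 1 high library well below the rest (log2 -0.43, SE 0.17, adjusted p = 0.35). In PFC, Prkar1b held 50186, 43886 and 52484 in high performers, against 45856, 41775 and 41587 in low performers, with overlap (log2 0.18, adjusted p = 0.30).

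Of the catalytic genes, Prkacb passed in MDTH. In MDTH, Prkacb held 20850, 16951 and 15052 normalized counts in high performers, against 23857, 29119 and 24847 in low performers. The groups did not overlap, and Prkacb was 1.47-fold lower in high performers (log2 -0.57, SE 0.14, adjusted p = 0.025). The call was lost in 4 of 6 fits without 1 library, those without high replicate 2 (adjusted p = 0.077), high replicate 3 (0.069), low replicate 2 (0.079) and low replicate 3 (0.070). It was also lost without the trend and with the title number as a block. In PFC, Prkacb held 34708, 34773 and 35996 in high performers, against 32869, 29888 and 29931 in low performers, where all high libraries were above the low ones (log2 0.19, SE 0.074, adjusted p = 0.18). In HPF, Prkacb held 18449, 21240 and 17600 in high performers, against 18672, 14468 and 16422 in low performers, with overlap (log2 0.21, adjusted p = 0.50).

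Prkaca, which encodes the most widely studied catalytic subunit, passed in no tissue. In MDTH, Prkaca held 13497, 14027 and 14505 normalized counts in high performers, against 14368, 15367 and 13751 in low performers (log2 -0.05, 95% interval -0.22 to 0.13, adjusted p = 0.66). In PFC, Prkaca held 10060, 10982 and 11036 in high performers, against 11183, 10394 and 10327 in low performers (log2 0.01, 95% interval -0.17 to 0.19, adjusted p = 0.96). The groups were interleaved in both tissues. In HPF, Prkaca held 9039, 9498 and 8149 in high performers, against 11459, 10379 and 10666 in low performers, with every high library below every low one (log2 -0.29, SE 0.087, adjusted p = 0.26).

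The Epac genes passed in no tissue. In HPF, Rapgef3 held 1594, 1909 and 1738 normalized counts in high performers, against 996, 1406 and 973 in low performers. Every high library was above every low one, a ratio of means of 1.55 (log2 0.65, SE 0.16, adjusted p = 0.21), and it passed with all 18 libraries in the fit (adjusted p = 0.042). Only 0.0166% of all genes passed in HPF, so 0 passing in a marker list there decides little. Beside Rapgef3, 10 endothelial and mural markers summed to 10191 to 19278 in high and 7381 to 10378 in low HPF libraries, with 0 of 10 passing and none at 0 throughout a group. Their median log2 difference was 0.53. Likewise, 10 choroid plexus and ependymal markers summed to 8257 to 163038 in high and 4513 to 6547 in low HPF libraries, with 0 of 9 tested passing and a median log2 difference of 1.24. The highest of these sums was that of high replicate 2, and the other 2 high libraries had 8257 and 9371. Sums of 10 cortical excitatory markers were 92626 to 109223 in high and 127098 to 141335 in low HPF libraries, without overlap. The median log2 difference of these 10 was -0.044 there. Hippocampal sums were higher without overlap, at 56867 to 81369 in high and 47798 to 49810 in low HPF libraries, although the 1 of 10 hippocampal markers that passed was lower. The hippocampal median log2 difference was 0.12. Sums of 10 striatal markers were 15934 to 18668 in high and 11261 to 11616 in low HPF libraries, again without overlap (median log2 difference 0.62), and 0 of 10 passed in the cortical and in the striatal list. No marker of these 3 lists was at 0 throughout a group. The mitochondrial share of the signal was 7.44% ± 1.08 in high and 5.68% ± 0.884 in low HPF libraries (SD, n = 3 each), without overlap. The part of each of these in the HPF differences of Rapgef3 and Prkaca, and in the balances and interactions below that use HPF, was not tested.

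In PFC, Rapgef3 held 1574, 1414 and 1504 normalized counts in high performers, against 2051, 1812 and 1734 in low performers, without overlap and with the high libraries lower (log2 -0.32, SE 0.10, adjusted p = 0.12). In MDTH, Rapgef3 held 2189, 1517 and 1694 in high performers, against 1829, 2144 and 2065 in low performers, with overlap (log2 -0.18, adjusted p = 0.42). In MDTH, Rapgef4 held 9950, 12352 and 8991 in high performers, against 8178, 7839 and 7785 in low performers. All high libraries were above the low ones (log2 0.38, SE 0.12, adjusted p = 0.055), and the difference passed without high replicate 3 (adjusted p = 0.039) and with the minimum mean raised to 100. In HPF, Rapgef4 held 17332, 16743 and 28549 in high performers, against 24206, 28676 and 21655 in low performers, with overlap (log2 -0.29, SE 0.22, adjusted p = 0.60). Within HPF, lane 3 held only high and lane 5 only low libraries, and lane 4 held high replicate 3 and low replicate 3. Lane and performance are thus largely confounded there. With lane as a term the HPF Rapgef4 difference was 0.40, which rests on the lane 4 libraries alone. In PFC, Rapgef4 held 44617, 53969 and 44698 in high performers, against 38017, 52326 and 42646 in low performers, with overlap (log2 0.11, adjusted p = 0.65).

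**Figure D3:**
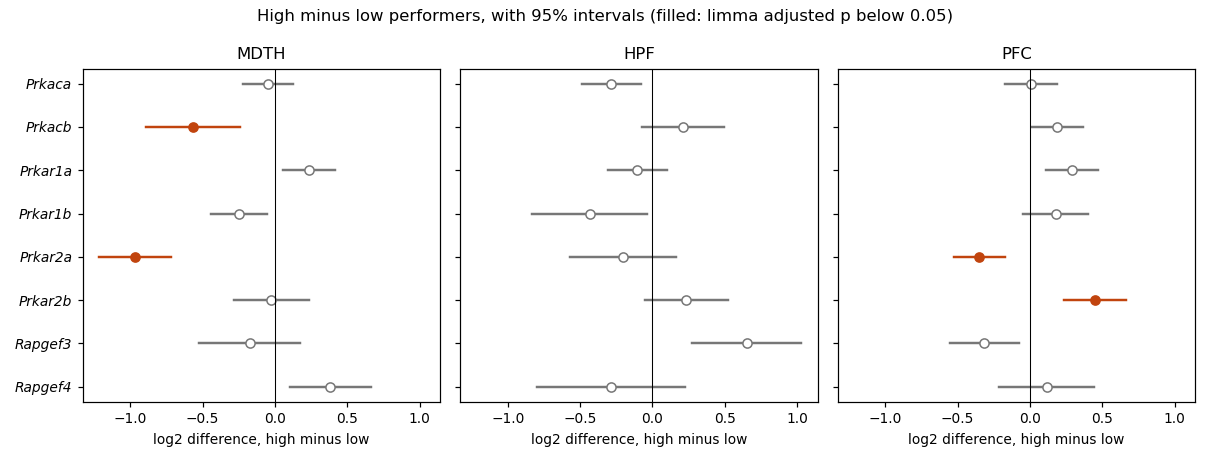
Log2 difference of high minus low performers for each gene in MDTH, HPF and PFC, with 95% intervals from limma. Filled points passed at an adjusted p below 0.05: Prkacb (-0.57) and Prkar2a (-0.96) in MDTH, and Prkar2a (-0.35) and Prkar2b (0.45) in PFC.

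An interaction term over the 18 libraries tested whether the gap between high and low performers changed from tissue to tissue, and it is given as the first tissue's difference minus the second's. For MDTH against HPF 4 of the 8 genes passed, where 19.0% of all genes passed. For MDTH against PFC 1 passed, against 3.41% of all genes, and for HPF against PFC 3 passed, against 9.14% of all genes. Among low libraries, only name number 163 is shared by MDTH and HPF, only 130 by MDTH and PFC, and none by HPF and PFC. A fixed block by that number thus holds little information on the low groups, and a call lost with it decides little. For the same reason, a gap that changes between tissues cannot be told apart from low libraries with different name numbers. The letter case of the library names also goes with performance in MDTH and PFC but not in HPF, so it is confounded with the interactions that use HPF. With the name number as a fixed block, which leaves 4 residual degrees of freedom, the genes passing fell to 1, 0 and 0 in the same order, and those of all genes to 10.6%, 0.0931% and 0%. With the name number as a random block, 5, 2 and 3 of the 8 passed, beside 27.4%, 5.66% and 13.3% of all genes.

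The lower Prkacb and Prkar2a of high performers in MDTH set that tissue apart from HPF. For Prkacb the high minus low difference was -0.57 in MDTH and 0.21 in HPF, an interaction of -0.78 (SE 0.17, adjusted p = 0.0055; 0.053 with the fixed block). For Prkar2a it was -0.96 in MDTH and -0.20 in HPF, an interaction of -0.76 (SE 0.18, adjusted p = 0.0074; 0.067 with the fixed block). Rapgef3 differed the other way in HPF, with an interaction of -0.83 for MDTH against HPF (SE 0.21, adjusted p = 0.012), which also passed with the fixed block (adjusted p = 0.024). All 3 of these passed in each of 18 fits without 1 library. Each set of 18 fits includes those without a library of the tissue outside the comparison. Such fits leave the interaction itself unchanged and alter only the estimated spread and the adjustment. Prkar1a gave 0.34 for MDTH against HPF (adjusted p = 0.024), passed in 13 of the 18, and was lost without high replicate 2 or 3 or low replicate 3 of MDTH, or high replicate 3 or low replicate 1 of HPF (adjusted p up to 0.063). It was also lost with the fixed block (adjusted p = 0.18) and with every library set to the same total (adjusted p = 0.067). Rapgef4 gave 0.67 (adjusted p = 0.087) and passed with the random block (adjusted p = 0.029) and without high replicate 3 of HPF (adjusted p = 0.0096).

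For HPF against PFC, Rapgef3 gave an interaction of 0.97 (SE 0.21, adjusted p = 0.011), from 0.65 in HPF and -0.32 in PFC, and passed in each of 18 fits without 1 library. Prkar1a gave -0.39 (adjusted p = 0.021) and passed in 15 of 18, the exceptions being those without high replicate 3 of PFC and without high replicate 3 or low replicate 1 of HPF (adjusted p up to 0.060). Prkar1b gave -0.61 (adjusted p = 0.048) and passed in 2 of 18, without high replicate 1 of HPF or low replicate 1 of PFC, with adjusted p up to 0.11. It was also lost without the filter, without the trend and with the same total when mitochondrial genes were left out of it. None of these 3 passed with the fixed block, where their adjusted p was 0.19, 0.58 and 0.63. For MDTH against PFC, Prkacb gave -0.75 (SE 0.17, adjusted p = 0.022), from -0.57 in MDTH and 0.19 in PFC. It was lost in 5 of 18 fits without 1 library, those without high replicates 2 and 3 or low replicate 2 of MDTH, or high or low replicate 3 of PFC (adjusted p up to 0.076), and with the fixed block (adjusted p = 0.50). Prkar2a gave -0.62 for MDTH against PFC (adjusted p = 0.071) and passed with the random block (adjusted p = 0.044) and without low replicate 1 of MDTH or high or low replicate 2 of HPF (lowest adjusted p = 0.040). It also passed with the same total, with or without mitochondrial genes.

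Ratios between the genes of 1 library do not depend on its scaling if 1 factor was applied to all its genes, which was not tested. The balance of subunits was therefore compared per kb of exon. With 3 libraries against 3, the exact two-sided permutation test cannot go below p = 0.1. Prkaca made up 73.8% ± 3.91 of the catalytic signal in the MDTH libraries of high performers, against 66.4% ± 1.49 in those of low performers (SD over 3 libraries, here and below). In HPF the share was 62.2% ± 1.08 in high performers, against 69.9% ± 1.65 in low performers, and in PFC it was 51.7% ± 1.09 in high performers, against 54.8% ± 0.276 in low performers. The groups did not overlap in any tissue (exact p = 0.1 each), and the share was higher in high performers in MDTH and lower in HPF and PFC. In MDTH the log2 difference of Prkaca itself was -0.05 and that of Prkacb -0.57, so the share there follows Prkacb. How often shares or ratios of other genes separate the groups was not tested, here and below. The shares themselves rest on the length used, and the mean Prkaca share of PFC was 53.3% with all exons and 38.2% with the longest transcript.

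Among the 4 regulatory genes, Prkar1a took 52.7% ± 2.12 of the signal per kb in the MDTH libraries of high performers, against 43.5% ± 0.525 in those of low performers. Prkar1b took 40.8% ± 1.76 in high performers, against 47.1% ± 1.62 in low performers there, and the type II genes together 6.46% ± 0.372 and 9.33% ± 1.14 in high and low performers. None of these MDTH groups overlapped (exact p = 0.1 each). In HPF the Prkar1a share was 57.4% ± 3.23 in high performers, against 53.3% ± 2.64 in low performers, with overlap. In PFC it was 39.1% ± 1.64 in high performers, against 37.2% ± 0.665 in low performers, without overlap. The log2 ratio of catalytic to regulatory signal was lower in high performers by 0.16 in MDTH (-1.28 ± 0.036 in high and -1.12 ± 0.0418 in low) and by 0.12 in PFC (-1.53 ± 0.0893 in high and -1.40 ± 0.0165 in low), without overlap. These differences rest on the length used: without a length correction the high minus low difference was -0.30 in MDTH, 0.24 in HPF and -0.064 in PFC, and that of the type II share in MDTH -4.35 percentage points in place of -2.87. In HPF the log2 ratio of catalytic to regulatory signal per kb was -1.19 ± 0.098 in high performers, against -1.29 ± 0.138 in low performers, with overlap (exact p = 0.5).

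The ratio of Prkar2b to Prkar2a, like the type II total above, was examined after the values of both had been seen. In MDTH its log2 was 0.02 ± 0.23 in high performers, against -0.92 ± 0.16 in low performers. In HPF it was 0.55 ± 0.17 in high performers, against 0.11 ± 0.41 in low performers, and in PFC 0.81 ± 0.12 in high performers, against 0.01 ± 0.10 in low performers. Every high library was above every low one of its tissue (exact p = 0.1 each), by a narrow gap in HPF, where the lowest high library was at 0.36 and the highest low one at 0.35. For the Epac genes, Rapgef4 made up 84.4% ± 3.77 of the signal per kb in high performers, against 78.9% ± 1.78 in low performers of MDTH, and 91.5% ± 2.36 in high performers, against 95.5% ± 0.378 in low performers of HPF, without overlap. In PFC it made up 96.8% ± 0.479 in high performers, against 95.7% ± 0.949 in low performers, with overlap.

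**Figure D4:**
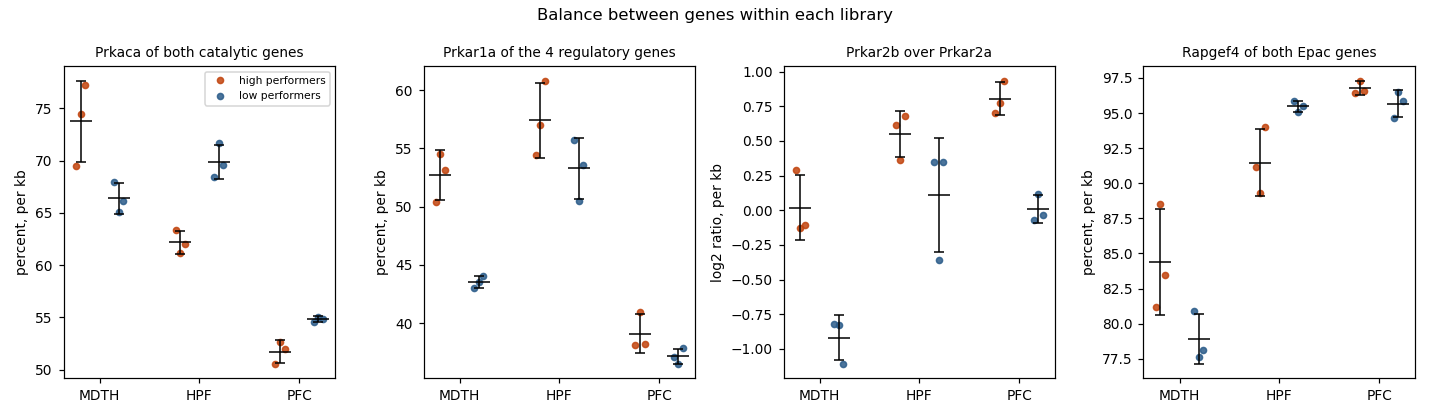
Share of Prkaca among the catalytic genes, of Prkar1a among the regulatory genes and of Rapgef4 among the Epac genes (percent), and log2 ratio of Prkar2b to Prkar2a, per kb in each library of MDTH, HPF and PFC. Bars are the mean ± SD of 3 libraries, and the percent axes do not start at 0. The Prkaca share is higher in high performers of MDTH (73.8% and 66.4%) and lower in those of HPF (62.2% and 69.9%).

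The MDTH libraries also differed in markers of neuron types. The 12 thalamic markers summed to 363357 to 409067 normalized counts in high performers, against 179434 to 260464 in low performers, with 8 higher and 1 lower among the 12 tested. The 10 habenula markers summed to 985 to 2089 in high performers, against 4528 to 25545 in low performers, with 0 higher and 6 lower. The 10 inhibitory neuron markers summed to 2360 to 2940 in high performers, against 8143 to 26446 in low performers, with 0 higher and 4 lower. No marker of these 3 lists was at 0 throughout a group, and the groups did not overlap in any of the 3 sums. Sums of 10 cortical excitatory markers were 35641 to 45620 in high performers, against 22081 to 29386 in low performers of MDTH, without overlap and with 1 of 10 higher. The median log2 difference of these 10 in MDTH was -0.0065, and the higher sums came mainly from members such as Slc17a7 and Rorb. There 10 immediate-early genes summed to 3798 to 5440 in high performers, against 5339 to 15938 in low performers, with 3 of 9 tested lower, and the groups overlapped narrowly. The mitochondrial share of the MDTH signal was 5.90% ± 0.444 in high performers, against 7.72% ± 1.06 in low performers (SD, n = 3 each), without overlap. These values differed between high and low performers of MDTH alongside Prkar2a and Prkacb, but not all followed them library by library. Across low replicates 1 to 3, Prkar2a held 6661, 7056 and 8601. The habenula sums rose likewise (4528, 10962 and 25545), whereas the inhibitory sums fell (26446, 8647 and 8143). The part of these values in the Prkar2a and Prkacb differences was not tested. In PFC, 10 immediate-early genes summed to 24218 to 26464 in high performers, against 41028 to 120170 in low performers, with 3 lower, and 3 of 10 microglial markers were lower (sums of 16294 to 19606 in high and 20398 to 23574 in low performers). The mitochondrial share of the PFC signal was 5.43% ± 0.172 in high performers, against 8.47% ± 0.279 in low performers (SD, n = 3 each). Choroid plexus and ependymal sums varied widely, from 2075 to 147631 in high and 5049 to 125637 in low PFC libraries, with 0 of 9 tested passing. Sums of 10 oligodendrocyte markers were 152755 to 341964 in high and 166743 to 551014 in low PFC libraries, with 0 of 10 passing. Both overlapped, and 5.85% of all genes passed in PFC. The part of all these values in the PFC differences of Prkar2a and Prkar2b was not tested.

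**Figure D5:**
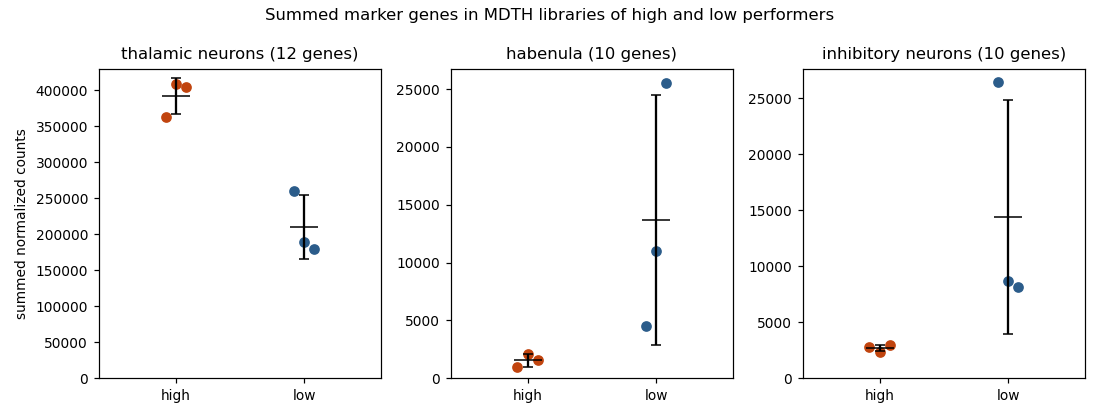
Summed normalized counts of 12 thalamic, 10 habenula and 10 inhibitory neuron markers in MDTH libraries of high and low performers, with the mean ± SD of 3. Thalamic sums are higher in every high library (363357 to 409067, against 179434 to 260464), and the other 2 sums are lower.

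The rest of the cAMP pathway was described through 8 lists of 96 genes, whose counts stand beside 25.0% of all genes passing in MDTH, 0.0166% in HPF and 5.85% in PFC. In MDTH, both inhibitor peptide genes that passed were lower, among 3 tested, and the median log2 difference of the list was -0.56. Pkia, a tight inhibitor of free catalytic subunits, had means of 6197 ± 522 normalized counts in high performers, against 9184 ± 1361 in low performers (SD over 3 libraries, here and below; log2 -0.56, adjusted p = 0.019). Pkig, of the same family, averaged 514 ± 104 in high performers, against 799 ± 94.3 in low performers (log2 -0.65, adjusted p = 0.038). In PFC none of the 3 passed, and Pkia averaged 11463 ± 736 in high performers, against 8871 ± 592 in low performers (log2 0.37, adjusted p = 0.051). The second PFC gene by p, Pkib, had a log2 difference of -0.22 (adjusted p = 0.58).

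Of 22 anchoring protein genes tested in MDTH, 4 were higher and 3 lower, beside 12.5% of all genes in each direction, with a median of 0.13. Akap10, whose product binds both regulatory types, averaged 2532 ± 218 in high performers, against 1573 ± 136.1 in low performers (log2 0.69, adjusted p = 0.0068). Akap11 averaged 20425 ± 872 in high performers, against 15307 ± 1100 in low performers (log2 0.42, adjusted p = 0.013). In PFC 0 of 21 were higher and 1 lower, which was Ezr, a membrane-cytoskeleton linker (log2 -0.66, adjusted p = 0.037), and Akap10 was at 0.35 (adjusted p = 0.094).

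Among the genes that make and break cAMP in MDTH, 2 of 11 synthesis genes were higher and 1 lower, and 4 of 15 phosphodiesterase genes were higher and 1 lower, beside 12.5% of all genes in each direction. Adcy1, a calmodulin-stimulated adenylyl cyclase of neurons, averaged 56806 ± 13603 in high performers, against 24259 ± 8739 in low performers (log2 1.26, adjusted p = 0.017). Adcy7, another cyclase, averaged 659 ± 56.0 in high performers, against 1139 ± 221 in low performers (log2 -0.78, adjusted p = 0.015). Pde7b, a cAMP-specific phosphodiesterase, averaged 7380 ± 405 in high performers, against 3077 ± 1089 in low performers (log2 1.32, adjusted p = 0.0083). Pde1a, a calmodulin-dependent phosphodiesterase, averaged 369 ± 149 in high performers, against 1649 ± 622 in low performers (log2 -2.16, adjusted p = 0.0083). In PFC 0 of 11 synthesis genes passed, with the smallest p in Adcy7 (log2 0.68, adjusted p = 0.075) and Adcy2 (0.25, adjusted p = 0.10). There 1 of 15 phosphodiesterase genes was higher, Pde4b, a cAMP-specific enzyme (log2 0.44, adjusted p = 0.029), and Pde8b did not pass (0.30, adjusted p = 0.10).

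Downstream of the kinase, 2 of 8 CREB factor and coactivator genes were higher and 4 lower in MDTH, where 12.5% of all genes passed in each direction. Crem, a CREB relative, had a log2 difference of 0.73 (adjusted p = 0.015), and the coactivator gene Crtc3 -0.46 (adjusted p = 0.024). In PFC 0 were higher and 2 lower, the coactivator genes Crtc2 (log2 -0.70, adjusted p = 0.036) and Crtc3 (-0.78, adjusted p = 0.048). Arpp19, which encodes a phosphatase inhibitor that is a substrate of the kinase, was the only one of 5 such genes to pass in either tissue. Arpp19 averaged 4148 ± 109 in high performers, against 3383 ± 172 in low performers of MDTH (log2 0.30, adjusted p = 0.027), and 22175 ± 661 in high performers, against 14245 ± 1156 in low performers of PFC (log2 0.64, adjusted p = 0.017). Ensa, its close relative, was at 0.22 (adjusted p = 0.14) in MDTH and 0.21 (adjusted p = 0.23) in PFC.

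On the Epac side, 3 higher and 2 lower genes were found in MDTH among 15 Rap GTPases and regulators, and 1 in each direction in PFC, beside 25.0% and 5.85% of all genes in either direction. The GTPase genes Rap2c (log2 0.55, adjusted p = 0.011) and Rap2a (0.37, adjusted p = 0.021) were higher in high performers of MDTH. In PFC the GTPase gene Rap2b was higher (log2 0.40, adjusted p = 0.044) and Sipa1, a Rap GTPase-activating protein gene, was lower (-0.70, adjusted p = 0.030). Of 12 other cyclic nucleotide receptor genes tested in MDTH, 1 was higher and 3 lower, beside 12.5% of all genes in each direction, among them the channel genes Cngb1 (log2 -2.24, adjusted p = 0.0090) and Hcn3 (-0.995, adjusted p = 0.013). In PFC 0 of 10 passed, and the channel gene Hcn2 had a log2 difference of -0.17 (adjusted p = 0.27). In HPF 0 genes of the 8 lists passed. The smallest p of each list there belonged to Akap2 (log2 0.47, adjusted p = 0.18), Pkib (-0.31, 0.54), Adcy8 (0.73, 0.27), Pde7b (0.57, 0.26), Ep300 (0.14, 0.53), Ppp1r1b (0.84, 0.19), Rap1gap2 (-0.36, 0.23) and Hcn4 (1.06, 0.45).

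The genes with the most similar profiles were taken by Pearson's r of log2 values over the 18 libraries, among 12527 genes. These r mostly follow tissue and are given as descriptions, over libraries that share tissue and name number. Prkaca was closest to Smarcd3 (r = 0.96), Fbxo9 (0.96) and Clgn (0.96), and Prkacb to Ptchd1 (0.97), Chd5 (0.94) and Sytl2 (0.94). Prkar1a was closest to Dynll2 (0.95), Cct8 (0.94) and Hprt (0.94), and Car10 was among the closest to Prkar1b (0.96). Prkar2a was closest to Ik (0.95), Spire2 (0.94) and Sos1 (0.94), and Prkar2b to Herc4 (0.92), Myl4 (0.91) and Dcbld1 (0.90). Rapgef3 had the weakest matches, in Mafk (0.86), Slc2a1 (0.85) and Lfng (0.84), and Rapgef4 matched Kctd1 (0.97), Lrrc8b (0.96) and Tbr1 (0.96). After each tissue mean was subtracted, the closest gene was Ccdc28a for Prkaca (r = 0.91), Usp27x for Prkacb (0.94), Set for Prkar1a (0.96) and Oxtr for Prkar1b (0.89). It was Spire2 for Prkar2a (0.95), Scg2 for Prkar2b (0.83), Cxxc4 for Rapgef3 (0.86) and Poc5 for Rapgef4 (0.82). Spire2 was thus the 1 gene named on both scales.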

How the data were processed

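RNA was sequenced from 18 mouse brain libraries, and per the labels' protocols the kit was a stranded Illumina TruSeq kit for mRNA. The authors deposited 1 normalized signal for each gene in each library, a count scaled by a normalization factor, per the title the deposited table carries. The submitters' processing notes list STAR, Salmon and DESeq2, with no version and no role. The genome build, the annotation and whether counting used strand are not given in the sources used here. Each of the 18 columns has the name of 1 library in the labels. Of the gene identifiers, 48058 (99.2%) were in GENCODE M21, with equal symbols, and coordinates and lengths come from there. Whole reads could not be recovered: within 0.02 of a read, 23.2% to 69.7% of low values per library were whole, so no count test was run. Totals ran from 50828589 to 59634490, and the commonest low value of a library, read as 1 read, gave its estimated depth.

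Values were tested as log2(value + 1) with limma 3.58.1 in R 4.3.3, two-sided with a mean-variance trend, over genes with a mean of at least 10, with Benjamini-Hochberg adjustment over all of them. All 8 genes passed this minimum. High and low performers were fitted in each tissue alone, and tissue differences and interactions over all 18 libraries in 6 group means. The scale understates the change of low genes. No label states that libraries of a group are separate animals, so the p-values reflect only the spread among them, which may be technical. Python 3.11.15, pandas 2.3.3, numpy 2.4.6 and matplotlib 3.10.9 were used for the rest.

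Numbers in the library names pair libraries of different tissues: the deviations from group means of all 11 pairs that share a number correlated (0.40 to 0.70), against -0.45 to 0.38 in the 43 other pairs. Fits with that number as a fixed or random block were therefore run for tissue differences and interactions. The high libraries used 3 numbers and the low libraries 7, of which 2 recur.

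The 8 genes, the 8 pathway lists and the 12 marker lists were chosen with earlier results of these data known. Named pathway genes are the 2 of each list with the smallest p in each tissue, except that only the first is named for HPF. Similar profiles were sought among genes with a mean of at least 100, leaving out predicted genes and pseudogenes. Pseudocount, filter, scaling, trend, blocks, lane, length and single libraries were varied. A few genes that the naming rule picked are not reported here.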

Additional observations from a re-analysis of the deposited data

Results flagged for a closer look

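For 8 results, the difference between high and low performers differed between tissues by a test of the interaction (limma, adjusted p below 0.05). For MDTH against HPF these were Prkacb at -0.78, Prkar2a at -0.76, Rapgef3 at -0.83 and Prkar1a at 0.34 on the log2 scale. For HPF against PFC they were Rapgef3 at 0.97, Prkar1a at -0.39 and Prkar1b at -0.61, and for MDTH against PFC Prkacb at -0.75. The low groups share few numbers in their library names, so a fixed block by that number holds little information on them. These interactions cannot be told apart from a change of numbered low libraries between tissues. With the number in the library names as a fixed block, only Rapgef3 for MDTH against HPF passed among these 8 (adjusted p = 0.024), and with it as a random block all 8 passed.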

How the results depend on the processing

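With 3 libraries a group, small differences in HPF and PFC may go undetected, and depth in MDTH and PFC was below that of HPF. The number of the 8 genes passing for high against low performers in PFC (2) was 0 without a filter, without the trend, and with the title number as a replicate block. In MDTH it was 1 in place of 2 without the trend and with that block, and in HPF 1 in place of 0 with all 18 libraries fitted. The title numbers share no variation (9 same-number pairs correlated at -0.16 to 0.13), so that block marks only a number. With the number in the library names as a random replicate block, 8 in place of 5 passed for HPF against PFC. The interaction of MDTH and PFC (1) gave 2 with libraries set to the same total, with or without mitochondrial genes, and with the random block, and 0 with the fixed block. With the fixed block the interactions of MDTH and HPF (4) and of HPF and PFC (3) gave 1 and 0. The block changed no other call than those given here and beside the results. Leaving out 1 library gave 1 to 2 in MDTH, 0 to 0 in HPF and 0 to 2 in PFC, 5 to 5 for MDTH against PFC, 7 to 7 for MDTH against HPF and 5 to 7 for HPF against PFC. It gave 0 to 2, 3 to 4 and 1 to 3 for the interactions of MDTH and PFC, MDTH and HPF, and HPF and PFC. For tissue differences and interactions, some of these fits left out a library of the tissue outside the comparison. Those fits cannot change the difference itself.

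Signs turned only for differences that had not passed. Prkaca in PFC was -0.00136 with median-ratio scaling. Rapgef4 in HPF was 0.40 in place of -0.29 with lane as a term, from the lane 4 libraries alone. The interaction of HPF and PFC for Prkacb was -0.024 with the same total. With the fixed block, the interaction of MDTH and PFC was 0.029 for Prkaca and 0.065 for Prkar1a, and that of MDTH and HPF -0.012 in place of 0.19 for Prkar1b. Without 1 library, Prkaca in PFC ran from -0.016 to 0.051, Prkar2b in MDTH from -0.13 to 0.043, Prkar2b for MDTH against HPF from -0.098 to 0.015, and the interactions of Rapgef3 (MDTH and PFC) from -0.0100 to 0.25 and Prkacb (HPF and PFC) from -0.067 to 0.12. The cause was not tested. Over all genes, calls in PFC (1053) ran from 0 with the title block to 2529 with all 18 libraries. Setting libraries to the same total moved the split of higher and lower calls from 579 and 474 to 1019 and 465 in PFC and from 3987 and 4324 to 5063 and 3479 for HPF against PFC. For MDTH it moved from 2233 and 2237 to 1640 and 2773 when mitochondrial genes were left out of the total.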
